A study of Homo sapiens with 8 samples.

Results

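The genes described here encode 6 sensors of foreign or misplaced nucleic acid and their adaptors, chosen by name: DDX58 (RIG-I, now RIGI), IFIH1 (MDA5), DHX58 (LGP2), TLR3, MAVS and TMEM173 (STING, now STING1). These genes, and the gene lists used below, were chosen with earlier results of these data known. All 6 were among the 25369 genes of the deposited tables and among the 14570 genes with enough counts to be tested. They were measured by RNA-seq in LX-2, an immortalized hepatic stellate cell (HSC) line of human origin. HSCs are the liver cells that lay down scar matrix when activated. The cells were wild type and were cultured on hydrogels with the stiffness of normal liver (2 kPa, soft matrix) or cirrhotic liver (40 kPa, stiff matrix). RNA was taken after 2 or 4 days, in 2 libraries for each condition and 8 altogether. LX-2 is a single line adapted to culture, so the values describe that line and not HSCs of different donors. The labels separate replicates by number only. The p-values set each difference against the spread between these libraries, estimated over the 4 conditions together.

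RIG-I, MDA5 and LGP2 are RNA helicases of the cytosol that bind double-stranded RNA and other RNA ends typical of viruses. RIG-I and MDA5 signal through MAVS on the outer membrane of mitochondria, whereas LGP2 lacks the signalling domain and tunes the other two. TLR3 senses double-stranded RNA in endosomes and signals through TICAM1 (TRIF). STING, on the endoplasmic reticulum, receives the cyclic dinucleotide that cGAS makes on cytosolic DNA. All of these routes reach the kinase TBK1 and the factors IRF3 and IRF7, which switch on type I interferon. Interferon in turn raises the genes of several of the sensors themselves through a complex with IRF9 that binds the interferon-stimulated response element (ISRE).

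The promoters are shown as a description of sequence, since an ISRE is a known site through which interferon acts on several sensor genes. Whether such sites have a part in the differences between the matrices was not tested. RefSeq windows of 300 bases (GRCh38.p14, read along the gene, with the start site at base 251) were held for 4 of the 6 genes. They are chr2:162318635-162318934 (IFIH1, reverse strand), chr4:186068906-186069205 (TLR3, forward strand), chr9:32526147-32526446 (DDX58, reverse strand) and chr20:3846584-3846883 (MAVS, forward strand). Capitals mark GAAA, any 2 bases and a further GAAA, read on either strand, which stand for an ISRE.
IFIH1: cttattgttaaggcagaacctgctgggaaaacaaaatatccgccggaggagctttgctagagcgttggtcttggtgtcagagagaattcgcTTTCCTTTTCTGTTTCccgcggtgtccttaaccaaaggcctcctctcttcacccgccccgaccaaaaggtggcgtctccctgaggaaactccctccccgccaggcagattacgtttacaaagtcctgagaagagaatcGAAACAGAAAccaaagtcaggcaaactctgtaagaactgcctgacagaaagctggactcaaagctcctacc
TLR3: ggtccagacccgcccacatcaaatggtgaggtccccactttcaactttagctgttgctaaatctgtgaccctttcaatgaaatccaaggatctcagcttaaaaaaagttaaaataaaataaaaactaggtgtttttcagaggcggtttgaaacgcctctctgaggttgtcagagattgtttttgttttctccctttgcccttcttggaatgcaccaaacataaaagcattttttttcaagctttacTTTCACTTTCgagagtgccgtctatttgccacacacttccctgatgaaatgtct
DDX58: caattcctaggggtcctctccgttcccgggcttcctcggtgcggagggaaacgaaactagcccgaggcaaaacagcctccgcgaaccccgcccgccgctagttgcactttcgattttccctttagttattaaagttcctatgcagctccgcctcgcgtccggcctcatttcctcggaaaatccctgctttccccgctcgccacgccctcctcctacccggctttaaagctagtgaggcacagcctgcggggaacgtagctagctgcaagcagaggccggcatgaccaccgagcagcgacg
MAVS: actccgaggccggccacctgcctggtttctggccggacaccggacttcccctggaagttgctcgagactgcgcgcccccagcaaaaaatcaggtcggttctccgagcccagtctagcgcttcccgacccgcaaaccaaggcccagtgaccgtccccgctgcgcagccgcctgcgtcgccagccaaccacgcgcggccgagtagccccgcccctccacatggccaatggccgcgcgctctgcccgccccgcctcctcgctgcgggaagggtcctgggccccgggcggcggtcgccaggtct
IFIH1 held 3 matches, GAAACAGAAA from base 230 on the printed strand, and TTTCCTTTTC from base 92 and TTTCTGTTTC from base 98 on the opposite strand, the last pair overlapping. TLR3 held 1 match on the opposite strand, TTTCACTTTC from base 247, across the start site. DDX58 and MAVS held no match of this spacing in the window. Only this spacing was searched, so an absent match does not show that a promoter lacks an ISRE. The DDX58 window holds gaaacgaaa, with 1 base in place of 2 between the repeats. Of 35116 promoters of the same length, 3.57% held a match. The AP-1 letters TGANTCA were found in 0 of the 4 windows and in 7.71% of all promoters. A match is only a description of the sequence. DHX58 and TMEM173 are named without a window.

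The libraries held between 19955975 and 27263935 counts. Sampling noise alone did not account for the differences between replicates. Their chi-square divided by its degrees of freedom was 112 on the stiff matrix at 4 days and between 3.38 and 18.9 elsewhere. The pair from the stiff matrix at 4 days thus stands apart. The result without each library of that pair is given for the members that differed between the matrices. It is also given for DDX60, AIM2, CTSS, IRF1, IRF9 and OASL. Other genes named with a difference at 4 days, such as COL3A1, SOX9 and CXCL10, are given without it. Of 15 markers of stellate or mesenchymal cells, 9 had enough counts to be tested, COL1A1 among them, at 83.9 to 172 FPKM (read fragments scaled by transcript length and library size). The markers DES, LRAT, DCN, LUM and PDGFRA were among the genes too low to test. At 2 days, 6 of the 9 tested were lower and 2 higher on the stiff matrix without overlap, against 22.4% and 25.7% of all genes. Of these 9, 1 was lower at an unadjusted p under 0.05 by edgeR, and 0 passed the adjusted cutoff. At 4 days, COL3A1, COL1A2 and PDGFRB were lower and TAGLN was higher on the stiff matrix at an unadjusted p under 0.05, and 0 of the 9 passed the adjusted cutoff of edgeR. COL3A1 was then at 27.9 and 40.9 CPM on the soft and at 14.9 and 8.06 CPM on the stiff matrix (adjusted p = 0.25 by edgeR). These stellate markers were named after their values were seen. Of 13 leukocyte markers, 5 were at 0 in every library. At 2 days their summed level was 92 to 97.3 CPM (counts scaled by library size) on the soft and 108 to 110 CPM on the stiff matrix, and at 4 days 107 to 110 and 117 to 127 CPM. CD68 made up most of it, at 83.8 to 119 CPM. Of the 4 leukocyte markers tested, 2 had log2 fold changes below 0 on the stiff matrix at 2 days and 3 at 4 days. At a single day, 0 passed by edgeR at an adjusted or an unadjusted p under 0.05. Averaged over the days, 1 was higher and 1 lower at an unadjusted p under 0.05 (2.95% and 4.75% of all genes), and 0 passed the adjusted cutoff. The part of these markers in the results was not tested. Of 9 hepatocyte markers, 3 were at 0 in every library. Their summed level at 2 days was 7.22 to 7.3 CPM on the soft and 4.45 to 5.36 CPM on the stiff matrix. At 4 days it was 7.85 to 10.6 and 5.65 to 8.93 CPM. The 1 tested had log2 fold changes of -0.565 at 2 days (unadjusted p under 0.05 by edgeR) and -0.427 at 4 days, and did not pass the adjusted cutoff. Of 7 endothelial markers 2 were tested, and their list summed to 0.835 to 1.55 CPM. Of 5 cholangiocyte or epithelial markers 3 were tested, with sums of 32.2 to 37 CPM at 2 days and 50.7 to 71.2 CPM at 4 days. SOX9, which is among them, was at 55.1 and 50.6 CPM on the soft and at 40.8 and 40.8 CPM on the stiff matrix at 4 days (adjusted p = 0.553 by edgeR), and rose with time on both matrices. SOX9 alone of the 3 tested had a log2 fold change below 0 on the stiff matrix at 4 days, and the other 2 were above 0. In bulk RNA, fewer cells that express a gene and less RNA of it per cell cannot be told apart.

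The adaptors were the most abundant members and TLR3 was the least abundant in each condition. On the soft matrix at 2 days, the mean level in FPKM, which accounts for transcript length, was 17.3 for TMEM173, 11.9 for MAVS, 4.04 for DHX58, 2.38 for DDX58, 0.806 for IFIH1 and 0.17 for TLR3. The libraries of neighbouring genes in this order did not overlap. On the soft matrix at 4 days, the order was TMEM173 at 20.9 FPKM, MAVS at 13.1, DDX58 at 5.42, DHX58 at 3.31, IFIH1 at 1.4 and TLR3 at 0.423, again without overlap between neighbours. DDX58 and DHX58 thus traded places between the days. The log2 ratio of DDX58 to DHX58 in FPKM was -0.999 and -0.58 on the soft and -0.84 and -0.88 on the stiff matrix at 2 days. At 4 days this ratio was 0.69 and 0.73 on the soft and 0.14 and 0.51 on the stiff matrix, above 0 in all 4 libraries. On the stiff matrix, TMEM173 and MAVS could not be ordered at either day, and neither could IFIH1 and TLR3 at 4 days, since their libraries overlapped. DDX58 is the only member that shares exons with another annotated gene. An unnamed gene model on the same strand covers 43.2% of its exon bases in GENCODE on GRCh37, and how such reads were counted is not given in the sources used here.

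**Figure D1:**
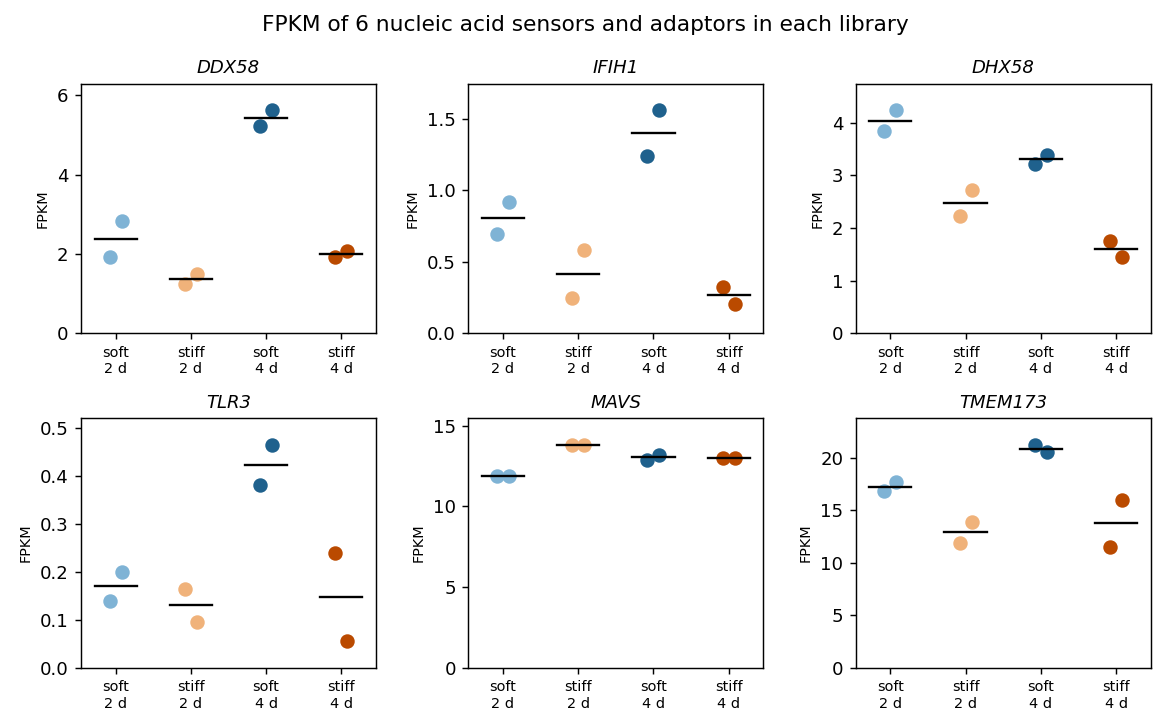
FPKM of each of the 6 genes (vertical axes from 0, scaled per gene) in each library, by matrix and day; points are libraries and bars are group means. DDX58 lies at 5.22 and 5.62 FPKM on the soft matrix at 4 days and at or below 2.83 in the other 6 libraries, whereas MAVS lies between 11.9 and 13.8 throughout.

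The stiff matrix was compared with the soft matrix to ask how substrate stiffness bears on the sensors. All 3 RIG-I-like receptors were lower on the stiff matrix in each library at both days, by 1.63-fold to 1.95-fold at 2 days and by 2.07-fold to 5.22-fold at 4 days. TMEM173 was lower by 1.34-fold and 1.52-fold, also without overlap, and MAVS was not. Of all genes tested, 22.4% were lower on the stiff matrix without overlap at 2 days and 14% at 4 days. Averaged over the days, DDX58 and DHX58 passed the adjusted cutoff as lower, as did 0.35% of all genes, and no member passed it at a single day.

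DDX58, the gene of RIG-I, occupies bases 32455300 to 32526206 of chromosome 9 (GRCh37, reverse strand). At 2 days its level was 1.93 and 2.83 FPKM on the soft and 1.24 and 1.48 FPKM on the stiff matrix. At 4 days it was 5.22 and 5.62 FPKM on the soft and 1.93 and 2.07 FPKM on the stiff matrix, from 535, 606, 188 and 173 counts. The stiff libraries lay below the soft ones at both days, by a gap that was wide beside the replicate spread at 4 days and narrower than the spread of the soft pair at 2 days. DDX58 had log2 fold changes of -0.81 (standard error 0.212) at 2 days and -1.45 (standard error 0.211) at 4 days, with adjusted p-values of 1 and 0.0529 from edgeR's quasi-likelihood test after Benjamini-Hochberg correction. Averaged over the days, for which 7 of 11 other settings also called it, DDX58 was 2.18-fold lower on the stiff matrix, a log2 fold change of -1.13 (95% interval -1.47 to -0.78) with an adjusted p of 0.0293 by edgeR. Among those settings was a replicate block with the numbers crossed at 4 days, added after the data were seen. The planned replicate block did not call DDX58.

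IFIH1, the gene of MDA5, spans bases 163123584 to 163175194 of chromosome 2, reverse strand. At 2 days its level was 0.692 and 0.92 FPKM on the soft and 0.244 and 0.582 FPKM on the stiff matrix. At 4 days it was 1.24 and 1.56 FPKM on the soft and 0.325 and 0.205 FPKM on the stiff matrix, where 24 and 13 counts stand behind the values. The stiff libraries were the lower ones at both days, and those of 2 days were far apart from each other. IFIH1 had the largest stiffness difference of the 6 genes at 4 days, a log2 fold change of -2.38 (standard error 0.435, 95% interval -3.39 to -1.38). Its adjusted p was 0.11 by edgeR, against 1 at 2 days, where the log2 fold change was -0.96 (standard error 0.406). Averaged over the days, IFIH1 was 3.19-fold lower on the stiff matrix (log2 fold change -1.67, adjusted p = 0.0783 by edgeR).

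DHX58, the gene of LGP2, spans bases 40253422 to 40264732 of chromosome 17, reverse strand. At 2 days it was at 3.85 and 4.24 FPKM on the soft and at 2.23 and 2.72 FPKM on the stiff matrix. After 4 days the values were 3.22 and 3.39 FPKM on the soft and 1.75 and 1.45 FPKM on the stiff matrix. Soft libraries were again the higher ones at both days, with narrow spreads. The log2 fold change was -0.71 (standard error 0.179) at 2 days and -1.05 (standard error 0.189) at 4 days, with adjusted p-values of 1 and 0.11 by edgeR. Averaged over the days, also called in 7 of 11 other settings, DHX58 was 1.84-fold lower on the stiff matrix, with a log2 fold change of -0.88 (95% interval -1.18 to -0.58) and an adjusted p of 0.0415 by edgeR. The same settings as for DDX58 called it, the crossed block among them, and the planned replicate block did not.

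TLR3, the endosomal receptor, spans bases 186990065 to 187009227 of chromosome 4, forward strand, and counting error limits what can be said of it. It had 12 and 17 counts on the soft and 12 and 7 on the stiff matrix at 2 days. At 4 days it had 25 and 32 counts on the soft and 15 and 3 on the stiff matrix, where the exact 95% Poisson intervals, which cover counting error only, ran from 8.4 to 24.7 and from 0.619 to 8.77. In FPKM, the libraries of the matrices overlapped at 2 days (0.139 and 0.201 against 0.165 and 0.0965) and did not at 4 days (0.381 and 0.465 against 0.24 and 0.0561). The log2 fold change at 4 days was -1.47 (standard error 0.577, 95% interval -2.80 to -0.13) with an adjusted p of 0.664 by edgeR. It was -2.87 without the first stiff library of 4 days (adjusted p = 0.00884 by edgeR) and -0.81 without the second (adjusted p = 0.432), so the lone stiff library decides its size.

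MAVS, the mitochondrial adaptor shared by RIG-I and MDA5, spans bases 3827446 to 3856770 of chromosome 20, forward strand, and differed least. At 2 days its level was 11.9 and 11.9 FPKM on the soft and 13.8 and 13.8 FPKM on the stiff matrix. At 4 days it was 12.9 and 13.2 FPKM on the soft and 13 and 13 FPKM on the stiff matrix. The stiff libraries were thus slightly higher at 2 days and lay between those of the soft matrix at 4 days. The log2 fold change of 0.21 (95% interval -0.06 to 0.48) at 2 days and of -0.02 (95% interval -0.28 to 0.25) at 4 days had adjusted p-values of 1 and 0.983 by edgeR. The interval at 4 days leaves room for a change of up to 0.28 on the log2 scale, well short of the differences of the RIG-I-like receptors.

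TMEM173, the gene of STING, spans bases 138855118 to 138862520 of chromosome 5, reverse strand. At 2 days it was at 16.8 and 17.7 FPKM on the soft and at 11.9 and 13.9 FPKM on the stiff matrix. After 4 days it stood at 21.2 and 20.5 FPKM on the soft and at 11.5 and 16 FPKM on the stiff matrix. The stiff libraries were lower at both days, and those of 4 days differed from each other by almost as much as from the soft libraries. TMEM173 had log2 fold changes of -0.42 (standard error 0.18) at 2 days and -0.60 (standard error 0.18) at 4 days, with adjusted p-values of 1 and 0.427 by edgeR. Averaged over the days, the log2 fold change was -0.51 (95% interval -0.80 to -0.22) with an adjusted p of 0.239 by edgeR. The 4-day log2 fold change was -0.37 without the first stiff library of 4 days (adjusted p = 0.0591 by edgeR) and -0.85 without the second (adjusted p = 0.00231).

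Set against all genes tested, 0 of the 6 members passed an adjusted p of 0.05 by edgeR at 2 days, where the background was 0%. At an unadjusted p under 0.05, 4 of the 6 were lower (DDX58, IFIH1, DHX58 and TMEM173), against 1.78% of all genes, and DESeq2 called 0 of the 6. At 4 days, 0 of the 6 passed by edgeR (background 0.247%), 5 of the 6 were lower at an unadjusted p under 0.05 (background 4.32%), and DESeq2 called DDX58, IFIH1 and DHX58. The members were chosen with earlier results of these data known, so such shares describe them and are not a test. Libraries did not overlap, with the stiff ones lower, for 4 members at 2 days and 5 at 4 days, against 22.4% and 14% of all genes. MAVS alone was higher without overlap at 2 days, as were 25.7% of all genes. For the effect averaged over the days, 2 of the 6 passed as lower, against 0.35% of all genes. The median log2 fold change of all genes was 0.02 or closer to 0 in these comparisons. Leaving out the first or second stiff library of 4 days gave DDX58 an adjusted p of 0.000184 or 0.00031 at 4 days, IFIH1 one of 0.00039 or 0.00679, and DHX58 one of 0.000979 or 0.0231, each by edgeR. The lone stiff library is then assumed to vary like the other groups. When any 1 of the 8 libraries was dropped, the adjusted p at 4 days reached up to 0.413 for DDX58, 0.67 for IFIH1 and 0.707 for DHX58. Leaving out any of the other 6 libraries gave 0 called members both at 4 days and averaged over the days, so the calls of DDX58 and DHX58 depend on all of the soft libraries and the stiff libraries of 2 days.

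**Figure D2:**
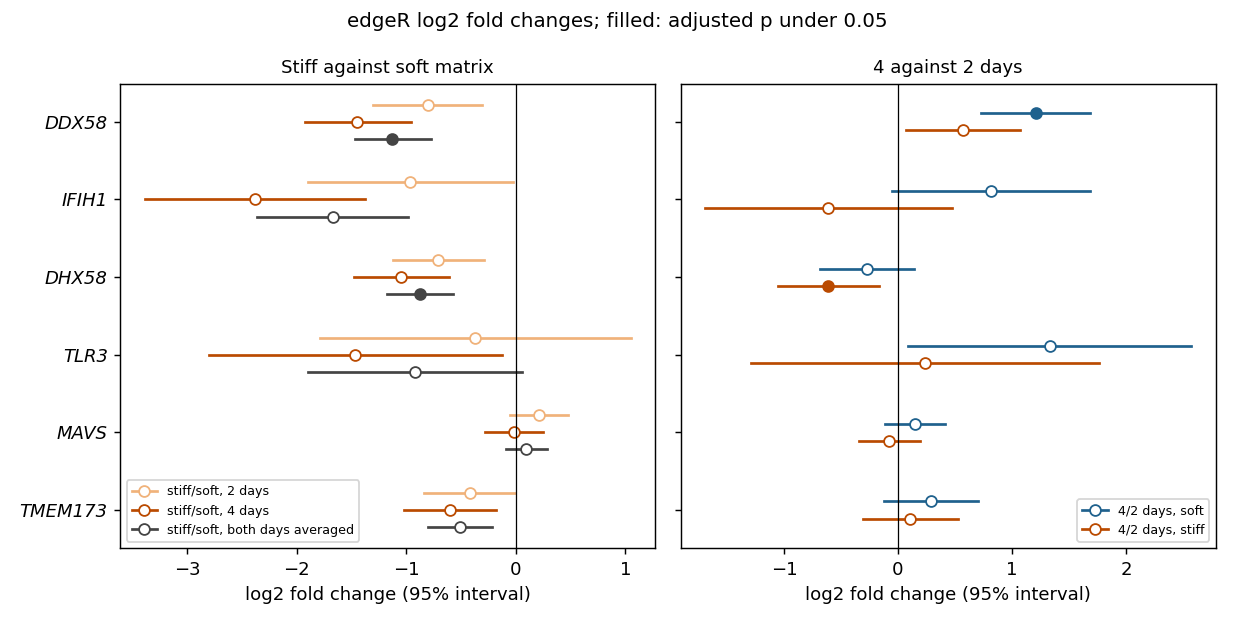
Log2 fold changes (horizontal axis, with 95% intervals) of the 6 genes from edgeR, for the stiff against the soft matrix and for 4 against 2 days; filled points passed an adjusted p of 0.05. At 4 days IFIH1 lies farthest to the left at -2.38 and MAVS sits at -0.02.

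Relative to MAVS within the same library, which removes the scaling between libraries, the 3 RIG-I-like receptors kept their lower level on the stiff matrix. The log2 ratio of DDX58 to MAVS in FPKM was -2.63 and -2.07 on the soft and -3.47 and -3.22 on the stiff matrix at 2 days. At 4 days it was -1.31 and -1.23 on the soft and -2.75 and -2.65 on the stiff matrix. The ratio of IFIH1 to MAVS was -3.38 and -3.09 on the soft and -5.32 and -5.98 on the stiff matrix at 4 days. TMEM173 was the only member with FPKM above those of MAVS. The ratio of TMEM173 to MAVS was 0.49 to 0.72 in the 4 soft libraries and -0.21 to 0.31 in the 4 stiff libraries. Such a ratio shows that the genes changed unequally and not that MAVS itself did not change.

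**Figure D3:**
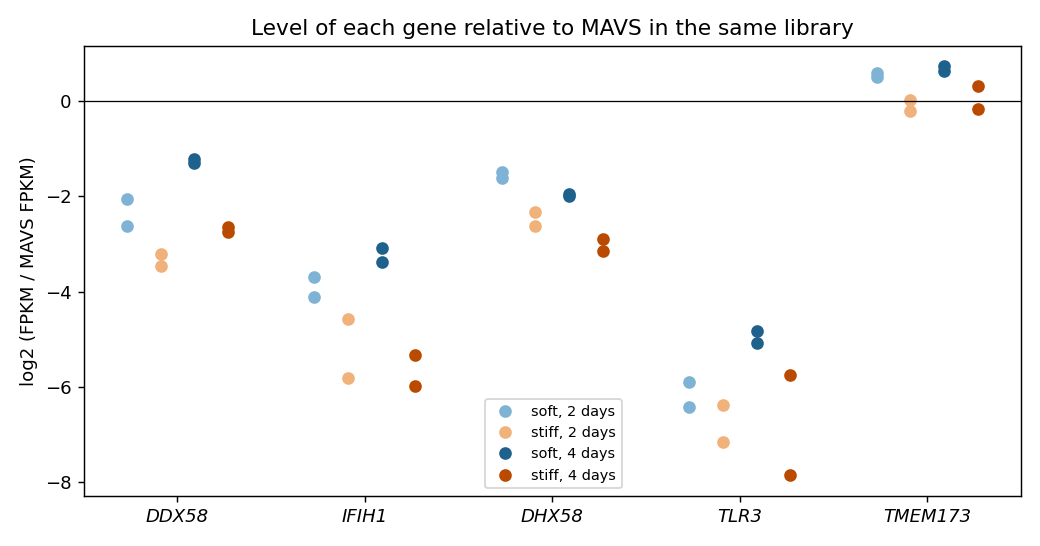
Log2 ratio of the FPKM of 5 genes to the FPKM of MAVS in the same library (vertical axis), with a point for each library coloured by matrix and day. For DDX58 at 4 days the soft libraries sit at -1.31 and -1.23 and the stiff libraries at -2.75 and -2.65.

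Whether the stiffness effect itself differed between the days was tested as its own contrast, and 0 of the 6 members passed by edgeR (background 0%). The log2 fold changes were more negative at 4 than at 2 days in all 6 members, by 0.64 for DDX58 and 0.34 for DHX58, and by 1.42 for IFIH1. Only IFIH1 had an unadjusted p under 0.05 (1.17% of all genes did in that direction), with a 95% interval from -2.81 to -0.04 for the change and an adjusted p of 1 by edgeR. DESeq2 called 0 of the 6.

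The days were compared on each matrix to ask how the sensors moved as culture went on. DDX58 rose on the soft matrix by 2.31-fold, and DHX58 fell on the stiff matrix by 1.52-fold. On the soft matrix, the log2 fold change of DDX58 was 1.21 (standard error 0.206, 95% interval 0.73 to 1.68) with an adjusted p of 0.00638 by edgeR. It was the only member called there, against a background of 27.4% of all genes. It was called in all 11 other settings, and without the first soft library of 2 days its adjusted p was 0.0687. On the soft matrix 5 of the 6 members were higher at 4 days without overlap and DHX58 was lower, which 38.5% and 36.7% of all genes also were. On the stiff matrix DDX58 had a log2 fold change of 0.57 (adjusted p = 0.0877 by edgeR), with both libraries of 4 days above those of 2 days.

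The other receptors did not share one course. On the soft matrix, TLR3 and IFIH1 were higher at 4 days without overlap, with log2 fold changes of 1.33 (95% interval 0.09 to 2.57, adjusted p = 0.103 by edgeR) and 0.81 (adjusted p = 0.143). DHX58 had a log2 fold change of -0.27 there (adjusted p = 0.284 by edgeR), opposite in sign to DDX58. On the stiff matrix, the fall of DHX58 was -0.61 on the log2 scale (95% interval -1.05 to -0.17, adjusted p = 0.0476 by edgeR), close to the cutoff. It was the only one of the 6 called on the stiff matrix, against a background of 27.6%, and DESeq2 gave it an adjusted p of 0.0516. Over 11 other settings its adjusted p ranged from 0.0406 to 0.362. Its call held without the first stiff library of 4 days and was lost without any of the other 7 libraries, with adjusted p-values up to 0.287. IFIH1, TLR3 and TMEM173 overlapped between the days on the stiff matrix. MAVS had log2 fold changes of 0.15 on the soft and -0.08 on the stiff matrix, neither past the cutoff. Of the 4 tested leukocyte markers, PTPRC rose with time by 2.06 on the soft and 1.56 on the stiff matrix on the log2 scale, whereas CSF1R fell by 1.34 and 1.63. PTPRC had 12 to 64 counts and CSF1R 6 to 53 counts per library, and their part in these changes was not tested.

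**Figure D4:**
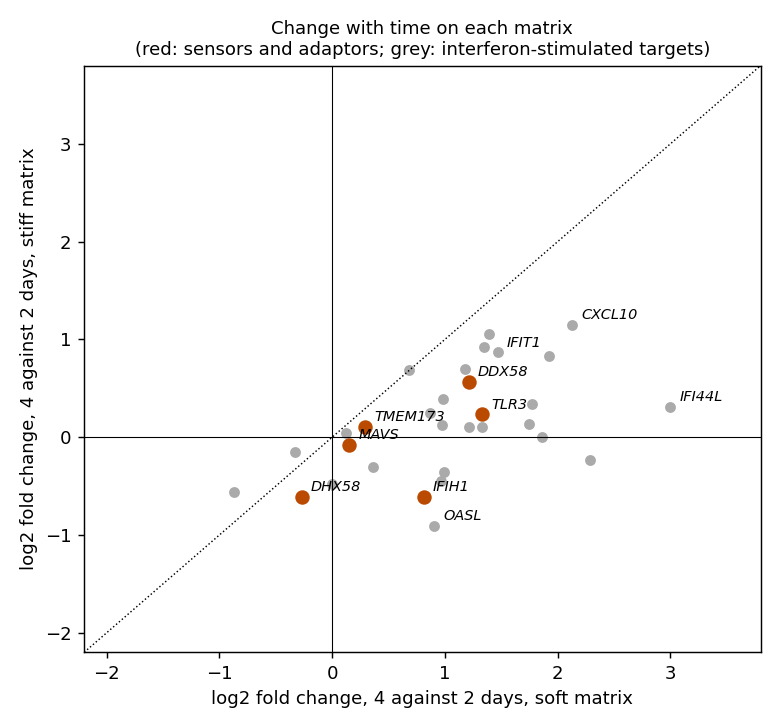
Log2 fold change from 2 to 4 days on the soft matrix (horizontal axis) and on the stiff matrix (vertical axis) for the 6 genes (red) and 25 interferon-stimulated targets (grey), each point a gene. DDX58 sits at 1.21 and 0.57, and DHX58 is below 0 on both axes at -0.27 and -0.61.

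Other sensors of nucleic acid mostly did not follow the RIG-I-like receptors. Of 22 listed, 17 were tested, with a median log2 fold change of -0.03 on the stiff matrix at 4 days. At an unadjusted p under 0.05 by edgeR, 4 of the 17 were lower and 0 higher, against 4.32% and 2.61% of all genes. Without overlap between libraries, 4 were lower and 0 higher, against 14% and 11.7% of all genes. DDX60, a helicase-like protein described as a RIG-I partner, was at 1.73 and 2.07 FPKM on the soft and 0.466 and 0.384 FPKM on the stiff matrix at 4 days. It was 4.48-fold lower on the stiff matrix (log2 fold change -2.16, standard error 0.244, adjusted p = 0.0199 by edgeR), the only gene of this list that passed. The adjusted p was 2.75e-05 and 0.000132 without the first and second stiff library of 4 days, and 0.103 to 0.183 without any 1 of the 4 soft libraries. MB21D1, the gene of cGAS, had 7.85 and 4.16 FPKM in the stiff libraries of 4 days and a log2 fold change of -0.18 (adjusted p = 0.916 by edgeR). AIM2, a sensor of cytosolic DNA that forms an inflammasome, had 54 and 35 counts on the soft and 10 and 8 on the stiff matrix at 4 days (adjusted p = 0.17 by edgeR). Its log2 fold change was -2.13 without the first stiff library of 4 days and -2.04 without the second. From 2 to 4 days on the soft matrix, 4 of the 17 rose (AIM2, IFI16, DDX60 and DDX1) and 2 fell (DDX41 and NLRP1), against 14.1% and 13.3% of all genes. The log2 fold change was 1.75 for AIM2 (adjusted p = 0.0163 by edgeR), 0.74 for IFI16 (adjusted p = 0.00829) and 0.88 for DDX60 (adjusted p = 0.0241). Each of these 3 calls was lost when the first soft library of 2 days or the first of 4 days was dropped, with adjusted p-values up to 0.155, 0.0994 and 0.185. AIM2 and DDX60 also lost theirs without the second soft library of 2 days, and IFI16 and DDX60 without the second of 4 days.

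Between sensor and interferon, the lists held few calls, as did all genes tested. By edgeR 0 of 16 tested cofactors and brakes of the RIG-I-like receptors, 0 of 11 genes of STING transport and 0 of 19 genes of the adaptor and kinase cascade passed at 4 days, against 0.247% of all genes, and DESeq2 called 0 as well. At an unadjusted p under 0.05 by edgeR, 0, 2 and 1 of them were lower on the stiff matrix, against 4.32% of all genes, and 0 were higher. At the adjusted cutoff, shares this near that of all genes are no result about these lists. At the unadjusted cutoff, the 2 of 11 genes of STING transport are a larger share than that of all genes. Of those 11, 4 were lower and 2 higher on the stiff matrix without overlap, against 14% and 11.7% of all genes. The medians of these lists were 0.04, 0.01 and 0.01 on the log2 scale. Of 8 enzymes that remove or edit the cell's own nucleic acids, 0 passed by edgeR or DESeq2, with 1 lower at an unadjusted p under 0.05. TBK1, the kinase at which the routes meet, and IRF3 had log2 fold changes of -0.15 and 0.22 (adjusted p = 0.901 and 0.915 by edgeR). Their stiff libraries were far apart, at 16.9 and 11.8 FPKM for TBK1 and 18.3 and 41.5 FPKM for IRF3. TICAM1, the adaptor of TLR3, had a log2 fold change of -0.15 between the matrices (adjusted p = 0.886 by edgeR) and fell with time on both, by 0.53 on the soft and 0.80 on the stiff matrix (adjusted p = 0.0392 and 0.0108 by edgeR). Dropping any library other than the stiff ones of 4 days lost the first of these calls (adjusted p up to 0.251), and dropping either stiff library of 2 days lost the second (up to 0.0864). HGS, which sorts receptors in endosomes, fell with time by 1.17 and 1.08 on the log2 scale on the soft and stiff matrix.

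The genes that did pass between the matrices were few. CTSS, an endosomal protease, was 3.81-fold lower on the stiff matrix at 4 days (log2 fold change -1.93, standard error 0.254, adjusted p = 0.0362 by edgeR), alone among the 7 genes of TLR3 trafficking and cleavage. CTSS was called in 6 of 12 other settings, the block with numbers crossed at 4 days among them, with adjusted p-values up to 0.73. IRF1, a factor that drives interferon and sensor genes, was at 11 and 10.3 FPKM on the soft and at 4.81 and 5.1 FPKM on the stiff matrix at 4 days. It was 2.16-fold lower there (log2 fold change -1.11, adjusted p = 0.0362 by edgeR), alone among 8 factors at the end of the cascade, while IRF7 had a log2 fold change of -0.34 (adjusted p = 0.862). IRF9, the DNA-binding part of the ISRE complex, was 1.8-fold lower when averaged over the days (log2 fold change -0.85, standard error 0.116, adjusted p = 0.0319 by edgeR), alone among 9 genes of interferon receptors and JAK-STAT signalling. IRF9 was at 18.3 and 16.6 FPKM on the soft and at 9.01 and 8.2 FPKM on the stiff matrix at 4 days. Dropping any 1 of the soft libraries or of the stiff libraries of 2 days lost the calls of all 3 genes, with adjusted p-values up to 0.3 for CTSS, 0.335 for IRF1 and 0.253 for IRF9. Without the first or second stiff library of 4 days, the adjusted p was 8.38e-06 or 0.000261 for CTSS, 0.000185 or 0.000281 for IRF1, and 3.75e-05 or 9.15e-05 for IRF9, each by edgeR.

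Interferon RNA itself was near or below detection. IFNB1 had 0 counts in all 8 libraries, which allows up to 0.11 to 0.15 CPM by the limit of 3 counts per library. Of 20 ligands of type I and III interferon, 14 had 0 counts in every library. IFNE, named after its values were seen, had 21 to 41 counts per library, and the other ligands had at most 6 counts in total over all libraries. Interferon protein was not measured here.

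Between the matrices, the interferon-stimulated targets went the same way as the RIG-I-like receptors. All 25 that could be tested had log2 fold changes below 0 on the stiff matrix at both days, with medians of -0.91 at 2 days and -1.61 at 4 days. At 4 days 11 of the 25 passed as lower (IFIT1, IFIT2, IFIT3, OAS1, OAS2, OASL, IFI44, IFI44L, CXCL10, CCL5 and EPSTI1), against 0.213% of all genes, and 12 passed when averaged over the days, with XAF1 added. This list too was chosen with earlier results of these data known. OASL, a relative of the oligoadenylate synthases that binds RIG-I, was at 11 and 10.1 FPKM on the soft and 1.05 and 1.04 FPKM on the stiff matrix at 4 days. It was 10.1-fold lower (log2 fold change -3.34, standard error 0.231, adjusted p = 0.00882 by edgeR), with an adjusted p of 1.65e-07 or 3.07e-07 without the first or second stiff library of 4 days and of 0.0542 to 0.0825 without any 1 of the soft libraries. CXCL10, a chemokine that attracts T cells, had 55 and 44 counts on the soft and 1 and 1 on the stiff matrix at 4 days. Without any 1 of the 4 soft libraries, 0 of the 25 passed at 4 days, and without either stiff library of 4 days 21 passed. Without either stiff library of 2 days 7 passed.

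With time, 18 of the 25 targets rose and 0 fell on the soft matrix, against 14.1% of all genes that rose, with a median log2 fold change of 1.18. On the stiff matrix 3 rose and 1 fell (backgrounds 14% and 13.7%), with a median of 0.13. IFIT1, which binds viral RNA ends, rose on both matrices, by 1.47 on the soft and 0.87 on the stiff matrix (adjusted p = 0.00157 and 0.00686 by edgeR), the second call being lost without either stiff library of 2 days (adjusted p = 0.0746 and 0.0668). OASL rose by 0.90 on the soft matrix and fell by 0.91 on the stiff matrix (adjusted p = 0.0147 and 0.0264 by edgeR). Any 1 of the soft libraries left out lost the rise (adjusted p up to 0.131), and either soft library of 2 days or the second stiff library of 2 days lost the fall (up to 0.19). The test of the difference between these changes gave OASL -1.81 on the log2 scale, with an adjusted p of 1. TYK2, a kinase of the interferon receptor, fell by 1.04 on the soft and by 1.02 on the stiff matrix (adjusted p = 0.00235 and 0.00247 by edgeR).

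**Figure D5:**
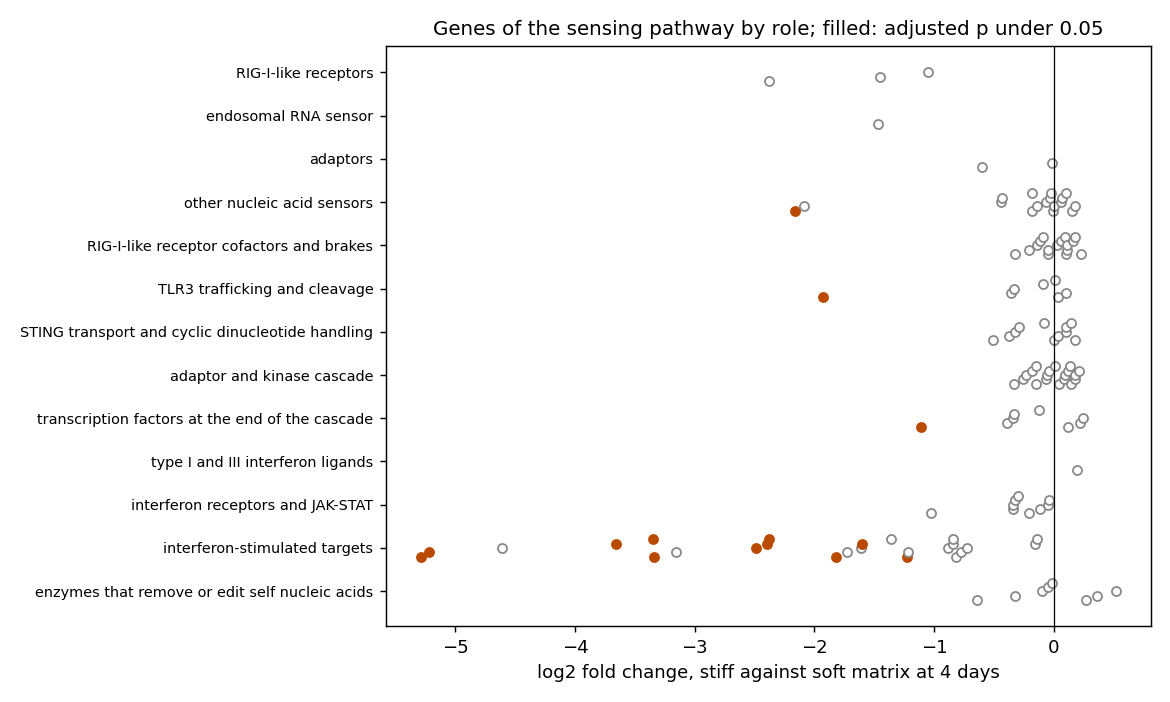
Log2 fold change between the matrices (stiff over soft) at 4 days (horizontal axis) for each tested gene, in a line per role in the pathway; filled points passed an adjusted p of 0.05 in edgeR. The interferon-stimulated targets lie below 0, with a median of -1.61, whereas the adaptor and kinase cascade is centred at 0.01.

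Over the 8 libraries, the genes with the pattern most like that of each member were picked by the Pearson r of log2 CPM among 12164 or 12165 genes whose average log2 CPM reached 1. The points share libraries and conditions, so r is a description. For DDX58 these were EPSTI1, APOL6, GABARAPL1, IFIT1 and HERC5 (r from 0.97 to 0.982), of which EPSTI1, IFIT1 and HERC5 are on the list of interferon-stimulated targets. For IFIH1 they were DDX60, APOL3, LPXN, IFIT2 and SCG2 (r from 0.964 to 0.98). DHX58 was closest to MMP2, IL4I1, ZNF395, CSF2 and IRAK2 (0.961 to 0.972), none of them on that list. TLR3, at its low counts, was closest to HIATL1, NLRP3, ANKRD32, TMEM87B and IRF2 (0.959 to 0.969). TMEM173 was closest to ORAI3, CCL2, LGALS3, ING4 and UBE2L6 (0.973 to 0.992). MAVS was closest to NPR3 at 0.977. Its next neighbours ZNF416, LOC90784, AXL and PINK1-AS, at 0.878 to 0.893, were looser than any listed for the other members.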

How the data were processed

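RNA of LX-2 cells was sequenced with paired ends after the NEBNext Ultra kit. The labels name a NovaSeq, whereas the methods name another Illumina instrument. The authors trimmed reads with TrimGalore, mapped them to hg19 with STAR and deposited the counts per gene from htseq-count, not normalized. A second table deposited by the authors holds FPKM, whose scaling between libraries followed size factors in 12138 genes checked. The annotation and strand setting are not given in the sources used here. DESeq2 was the authors' test.

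From the counts, 14570 genes passed edgeR's filterByExpr and were scaled by TMM (factors 0.8704 to 1.08). One quasi-likelihood fit took in the 8 libraries as 4 conditions (edgeR 4.0.16, limma 3.58.1, DESeq2 1.42.0, R 4.3.3; common dispersion 0.0281, prior degrees of freedom 3.86), with calls at a p under 0.05 after Benjamini-Hochberg adjustment. Totals of 19955975 to 27263935 counts leave low genes such as TLR3 limited by counting error. Log2 CPM used a prior count of 2.

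The 6 members and the pathway lists were chosen with earlier results of these data known. Named were all members, genes of each list past the adjusted cutoff in any contrast or otherwise the 2 with the largest change at 4 days, MB21D1, TICAM1, TBK1, IRF3, IRF7 and IFNB1, and the 5 genes most like each member. Of the genes past the cutoff, those central to the pathway are given with values and the others by counts. Promoters came from RefSeq, and positions from GENCODE on GRCh37.

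Alternatives were DESeq2, RLE or no scaling factors, no count filter or at least 10 counts in every library, only the 4 libraries compared, a replicate block, limma on FPKM with a pseudocount of 1 or 0.1 where 2 libraries reached 1 FPKM, limma with no filter, and each library left out. A crossed block at 4 days and voom with sample quality weights were added after the data were seen. Same-numbered libraries of the matrices had correlations of deviations of -0.0358 at 2 days and -0.49 at 4 days, so the numbers were not taken as pairs.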

Additional observations from a re-analysis of the deposited data

How the results depend on the processing

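The matrix differences of DDX58, IFIH1, DHX58 and TMEM173 kept their direction at both days under each alternative, and what changed was which passed. At 2 days, members called went from 0 to 4 in a fit of the 4 libraries compared and to 2 with voom, and genes called from 0 to 667 and 187 there, 28 with DESeq2 and 8 with limma without a filter. At 4 days, members called went from 0 to 1 with no count filter, 3 with DESeq2 and 4 with the block crossed. Genes called at 4 days went from 36 to 166 with DESeq2, 0 with the 4 libraries compared, 0 with the replicate block, 300 with the block crossed, 20 with limma without a filter and 4 with voom. Averaged over the days, members called went from 2 to 4 with DESeq2 or the crossed block and to 0 with the replicate block, limma on log2(FPKM + 0.1), limma without a filter or voom. Genes called there went from 62 to 218 with DESeq2, 5 with the replicate block, 414 with it crossed and 29 with voom. The replicate block thus lost the averaged calls of DDX58 and DHX58. Same-numbered libraries share only a number in the labels. For the change of the effect, genes called went from 0 to 3 with DESeq2, 1 with limma on log2(FPKM + 0.1) and 11 with limma without a filter. From 2 to 4 days on the soft matrix, members called went from 1 to 3 and genes from 3985 to 7261 and 7152, with the 4 libraries compared and voom. On the stiff matrix, members called went from 1 to 0 with no count filter, DESeq2, the 4 libraries compared, the replicate block, limma without a filter and voom. Genes called there went from 4024 to 0 with the 4 libraries compared (4188 at an unadjusted p under 0.05 by edgeR) and to 2024 with voom. The cause of these shifts was not tested. Without scaling factors the median of all genes on the stiff matrix over time moved from 0.03 to -0.10, and the called genes split into 1438 higher and 2130 lower on the soft matrix (2052 and 1933 with TMM) and 1305 and 2313 on the stiff matrix (2034 and 1990). Leaving out 1 library in turn gave 0 to 2 members at 2 days, 0 to 4 at 4 days, 0 to 5 averaged, 0 to 1 for the change of the effect, 0 to 4 with time on the soft and 0 to 2 on the stiff matrix. Genes called then ranged from 0 to 122, 0 to 4676, 0 to 2968, 0 to 3139, 347 to 7941 and 470 to 7826 in the same order, and the highest values were those without a stiff library of 4 days. Where leaving out 1 library turned a sign, the log2 fold change ranged at 4 days from -0.0342 to 0.0127 for MAVS, -0.411 to 0.092 for TBK1, -0.49 to 0.702 for IRF3, -0.697 to 0.208 for MB21D1 and -0.949 to 0.111 for IRF7. The turn came without the second soft library of 4 days for MAVS, and without a stiff library of that day for the others. The change of the effect in TMEM173 ranged from -0.425 to 0.0535. On the stiff matrix over time, the range was -1.1 to 0.137 for IFIH1, -1.18 to 0.87 for TLR3 and -0.16 to 0.33 for TMEM173. TMEM173 was also at -0.0355 there without scaling factors, and TLR3 at -0.013 with voom. Depth limits TLR3 most, at 3 to 32 counts per library.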
